A study of Mus musculus with 12 samples.

Results

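The genes described here are ribosome biogenesis factors, proteins that process the ribosomal RNA precursor and assemble it into ribosomal subunits. They were chosen as a named list of 50 genes, of which 49 had a measured value among the 19938 genes with 1 value each. The gene of the list without a value is Noc2l. By step, the 49 measured members comprise 8 proteins of small nucleolar ribonucleoproteins (snoRNPs), 20 of the small-subunit processome and 40S maturation, 17 of large-subunit assembly and 4 nucleolar proteins with several roles.

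The RNA came from NIH3T3, an immortalised line of mouse fibroblasts, and was hybridised to Affymetrix arrays. The 12 arrays fall into 4 groups of 3, described in the series' design text as biological replicate experiments. The groups were cells given an siRNA against UBF (sirUBF oligo 1), cells given an independent siRNA against UBF (sirUBF oligo 2), cells given an siRNA named for EGFP (sirEGFP), and Mock cells given the Dharmafect 2 transfection reagent with no siRNA. The siRNAs were used at 40 nM, all groups received the reagent, and RNA was taken 48 h after transfection. All arrays come from 1 cell line, and the knockdown is transient and in a bulk culture, in which less RNA per cell and fewer cells of a state cannot be told apart. All 8 fibroblast markers checked, Vim and Sparc among them, had a mean value above that of the median gene, as had 3 of 4 skeletal muscle, 2 of 4 adipocyte, 2 of 6 macrophage, 1 of 4 endothelial and 0 of 6 epithelial markers. The brightness of a probe set differs between genes, so this check is rough.

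UBF is the nucleolar factor that RNA polymerase I uses to transcribe the ribosomal RNA genes. The long precursor RNA is folded, modified and cut while proteins assemble on it in the nucleolus. Box C/D snoRNPs guide ribose methylation and box H/ACA snoRNPs guide pseudouridylation. The small-subunit processome forms at the 5′ part of the precursor and separates the 18S RNA, and another set of factors builds the large subunit around the remaining RNAs. Many of these genes are known targets of Myc, whose binding site is the E-box CACGTG.

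Ubtf, the gene that encodes UBF, had log2 values of 8.0, 7.74 and 7.64 with oligo 1 and 7.90, 7.83 and 7.49 with oligo 2, against 8.68, 8.31 and 8.04 with sirEGFP and 8.54, 8.63 and 8.41 with Mock. All 6 knockdown arrays lay below all 6 control arrays. The mean of both siRNAs was 0.67 ± 0.12 lower than the mean of both control groups on the log2 scale (limma, ± SE, adjusted p = 0.0041), and against sirEGFP alone the change of -0.58 ± 0.14 missed the threshold (adjusted p = 0.0526), which it passed under 6 of 21 alternatives. The oligo 1 and oligo 2 groups differed in Ubtf by 0.05, with a 95% interval of -0.30 to 0.40. Here and below, a gene was called when its p from limma, adjusted over all 19938 genes, was under 0.05. A change is a difference of mean log2 values, and apart from the marker check levels of different genes are not compared.

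Promoter windows from RefSeq (build GRCm38.p6), which reach from 250 bases before to 50 bases after an annotated start, were found for 43 of the 49 measured members, 46 windows in all. The windows of 4 genes are printed as examples. They are Cmss1, the member with the largest change after UBF siRNA, Gar1 and Nip7, which were also called lower, and Mybbp1a, whose value was higher but was not called. Capitals mark CACGTG, and CCGGAAG on either strand (CTTCCGG), the letters that Ets-family factors such as GABP bind.
Cmss1 (chr16:57606818-57607117, minus strand): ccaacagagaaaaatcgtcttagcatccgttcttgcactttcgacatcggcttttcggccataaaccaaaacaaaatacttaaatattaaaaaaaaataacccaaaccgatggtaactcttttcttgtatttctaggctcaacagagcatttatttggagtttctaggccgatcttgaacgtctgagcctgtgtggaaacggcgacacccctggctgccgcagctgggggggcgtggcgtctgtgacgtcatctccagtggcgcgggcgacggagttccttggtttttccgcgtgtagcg
Gar1 (chr3:129831347-129831646, minus strand): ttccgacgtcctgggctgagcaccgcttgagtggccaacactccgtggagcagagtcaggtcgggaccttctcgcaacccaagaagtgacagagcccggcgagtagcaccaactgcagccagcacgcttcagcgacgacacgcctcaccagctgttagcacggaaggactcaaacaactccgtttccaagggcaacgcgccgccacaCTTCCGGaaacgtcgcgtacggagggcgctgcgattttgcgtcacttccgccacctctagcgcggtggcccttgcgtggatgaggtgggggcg
Nip7 (chr8:107056627-107056926, plus strand): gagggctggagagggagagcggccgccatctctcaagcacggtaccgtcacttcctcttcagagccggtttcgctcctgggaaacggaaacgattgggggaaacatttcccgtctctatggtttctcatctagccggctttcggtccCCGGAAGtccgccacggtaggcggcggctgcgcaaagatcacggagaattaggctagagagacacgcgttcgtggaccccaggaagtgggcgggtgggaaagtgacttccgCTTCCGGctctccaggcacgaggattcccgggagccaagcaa
Mybbp1a (chr11:72441077-72441376, plus strand): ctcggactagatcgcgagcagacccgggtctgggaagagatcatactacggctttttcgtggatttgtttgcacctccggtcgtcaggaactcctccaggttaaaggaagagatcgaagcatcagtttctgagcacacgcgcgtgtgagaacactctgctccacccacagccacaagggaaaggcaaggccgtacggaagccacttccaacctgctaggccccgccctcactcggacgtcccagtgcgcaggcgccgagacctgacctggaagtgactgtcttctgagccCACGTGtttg

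Neither set of letters is present in the Cmss1 window. The Gar1 window holds CCGGAAG 1 time and the Nip7 window 2 times, and the Mybbp1a window holds CACGTG 1 time, after the start. Over the 46 member windows, CCGGAAG was found in 17 (37.0%), against 11.6% of the windows of all protein-coding genes in the RefSeq table. CACGTG was found in 9 member windows (19.6%), against 7.84% of those of protein-coding genes, and the genes with it were Ltv1, Mybbp1a, Nle1, Nop2, Pes1, Tsr1, Utp18, Utp20 and Wdr43. Of the 8 windows of the 6 members called in any comparison, 0 hold CACGTG and 2 hold CCGGAAG, those of Gar1 and Nip7. The windows of Utp15, Nop16 and Wdr12, which were also called, hold neither and are not printed. Both strands were also searched for other promoter letters. GGGCGG, which can overlap CTTCCGG by its first letters, was in 65.2% of member windows, against 46.2% of protein-coding ones. CCAAT was in 41.3%, against 38.2%. The TATA letters TATAAA were in 4.35%, against 12.6%. These counts describe letters in a window and say nothing of binding.

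The comparison of UBF siRNA with sirEGFP asks which of these genes differ in RNA level after siRNA against UBF. The UBF protein was not measured on these arrays. Across the 49 members most values were slightly lower after UBF siRNA than with sirEGFP, and few passed the test. Cmss1 and Wdr12 fell in the mean of both siRNAs against sirEGFP, by 0.72 ± 0.10 and 0.46 ± 0.11 on the log2 scale. These 2 called members of 49 stand beside 0.722% of all genes called lower in that comparison, and 0 members were called higher, beside 1.21% of all genes. The median change of the members was -0.093, against 0.0077 over all genes. In all, 36 of 49 members (73.5%) lay below 0, against 47.9% of all genes. An unadjusted limma p under 0.05 was found for 11 members, all of them lower, beside 1092 lower and 1548 higher of all 19938 genes. With a median half-width of the 95% interval of 0.26, a shift of the size of the median cannot be seen in a single member. Against Mock a smaller share of the members lay below 0. It was 65.3% with oligo 1 and 55.1% with oligo 2, against 40.1% and 48.0% of all genes.

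**Figure D1:**
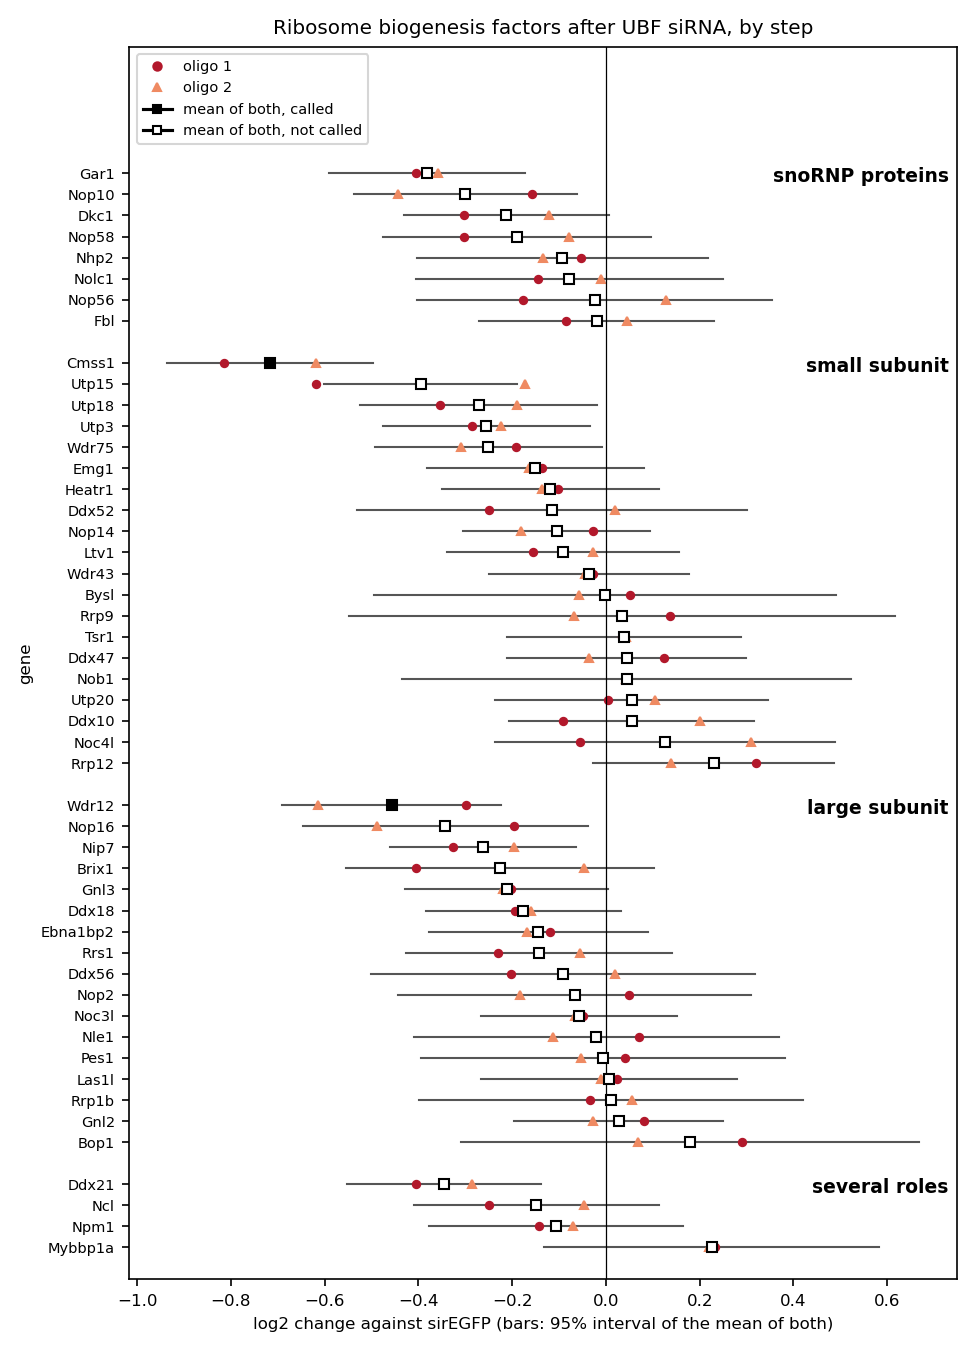
Log2 change against sirEGFP (horizontal axis) of each of the 49 measured members (rows, grouped by step and ordered by change), for oligo 1 (circles), oligo 2 (triangles) and the mean of both (squares with 95% intervals, filled where called). Cmss1 at -0.72 and Wdr12 at -0.46 are the filled squares, and 36 of the 49 squares lie left of 0.

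Each siRNA on its own gave the same number of called members. With oligo 1, Cmss1 and Utp15 fell against sirEGFP, beside 1.43% of all genes called lower and 1.04% called higher, and the member median was -0.14 against 0.022 over all genes. With oligo 2, Cmss1 and Wdr12 fell, beside 0.742% of all genes called lower and 1.52% called higher, and the member median was -0.065 against -0.0077 over all genes. Against Mock, oligo 1 lowered Cmss1 and Utp15, beside 1.4% of all genes called lower and 1.35% called higher. The member median was -0.12, against 0.043 over all genes. Oligo 2 against Mock lowered Cmss1, Nop16 and Wdr12, beside 1.32% of all genes called lower and 2.93% called higher. Its member median was -0.024, against 0.0082 over all genes. Leaving out 1 array ended the call of Utp15 with oligo 1 against Mock for Mock arrays 2 and 3 and each oligo 1 array (adjusted p up to 0.111), and those of Cmss1, Nop16 and Wdr12 with oligo 2 against Mock for 5 arrays each (up to 0.136, 0.113 and 0.0804). The call of Cmss1 with oligo 2 against Mock was also lost with median centring (0.0587) and with the intensity trend (0.0503). The comparisons with sirEGFP share their 3 control arrays, and so do those with Mock. When the mean of both siRNAs was set against the mean of both control groups, 6 members fell: Cmss1, Gar1, Nip7, Nop16, Utp15 and Wdr12. That count stands beside 1.87% of all genes called lower. In the main fit no member was called higher in any of the 8 comparisons, beside 3.05% of all genes called higher in the last one. Ddx10, described below, came near the threshold against Mock.

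**Figure D2:**
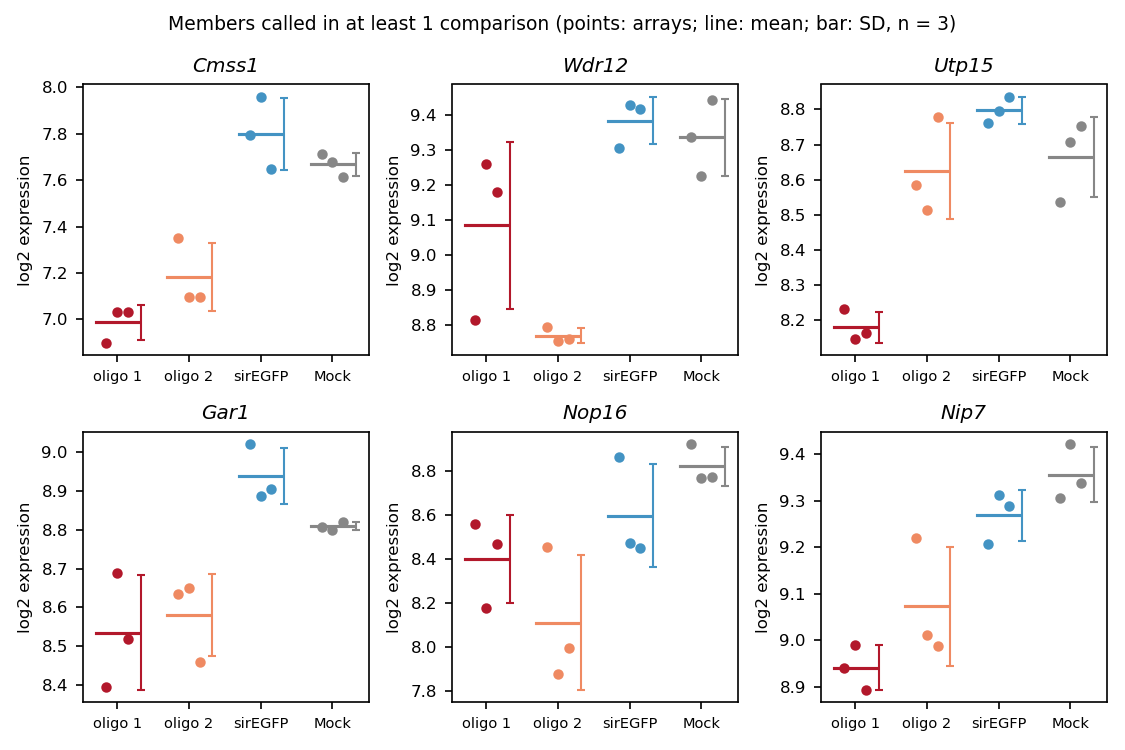
Log2 expression (vertical axis, its own range in each panel) on every array for the 6 members called in at least 1 comparison, with group means (lines) and SD (bars, n = 3). For Cmss1 and Gar1 all 6 knockdown arrays sit below all 6 control arrays, Utp15 is low with oligo 1, and Wdr12 is lowest with oligo 2.

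Among the snoRNP proteins, 0 of 8 were called against sirEGFP. The 4 box H/ACA core proteins Gar1, Nop10, Dkc1 and Nhp2 had the lowest median change against sirEGFP of the complexes and families of members looked at. The others were the box C/D, UtpA and PeBoW proteins, the DEAD-box helicases and the GTPases. The H/ACA median was -0.26 in the mean of both siRNAs, and all 4 lay below 0 with each siRNA against each control group. The 3 box C/D core proteins among the members, Fbl (the methyltransferase fibrillarin), Nop56 and Nop58, had a median of -0.024 in the mean of both siRNAs. A further box C/D core protein, Snu13, belongs to the further list described below and is not part of the box C/D medians. Against sirEGFP the box C/D median was -0.18 with oligo 1 (3 of 3 below 0) and 0.045 with oligo 2, and the H/ACA median was -0.23 with oligo 1 and -0.25 with oligo 2. Against Mock the box C/D median was -0.24 with oligo 1 and 0.027 with oligo 2, and the H/ACA median was -0.24 with oligo 1 and -0.31 with oligo 2. The 13 exosome genes of the further list also lay mostly below 0. Their median was -0.17 in the mean of both siRNAs against sirEGFP, with 10 of 13 below 0. Against sirEGFP it was -0.26 with oligo 1 and -0.12 with oligo 2, and against Mock -0.28 and -0.14. The 8 snoRNP proteins together had a median of -0.14, and 8 of 8 lay below 0. The complexes within a step were picked after values had been seen and were given no test.

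Gar1, an H/ACA core protein, had log2 values of 8.39, 8.69 and 8.52 with oligo 1 and 8.63, 8.65 and 8.46 with oligo 2, against 9.02, 8.89 and 8.91 with sirEGFP and 8.81, 8.80 and 8.82 with Mock. All knockdown arrays lay below all control arrays, as they did for 2 of the 49 members, Gar1 and Cmss1, and for 0.692% of all genes, and the siRNA groups overlapped each other. The reverse was seen for 0 members and 1.43% of all genes. These counts take 1 probe set per gene. A second probe set of Wdr12 and one of Ddx18, neither used here, also had all knockdown arrays below all control arrays. Gar1 fell by 0.32 ± 0.08 against the mean of both controls (adjusted p = 0.0322), a change of -19.7% in level. Against sirEGFP alone the change was -0.38 ± 0.10 (adjusted p = 0.0628). The call against both controls was lost without any 1 array other than array 2 of oligo 1 or array 2 of oligo 2, where the adjusted p lay between 0.0568 and 0.092.

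Nop10, the smallest H/ACA core protein, had values of 11.49, 11.94 and 11.81 with oligo 1 and 11.51, 11.35 and 11.52 with oligo 2, against 11.79, 11.87 and 12.05 with sirEGFP and 11.82, 11.82 and 11.88 with Mock. The oligo 2 arrays lay below all control arrays, and of the oligo 1 arrays only array 1 did. The change against sirEGFP was -0.44 ± 0.13 with oligo 2 (adjusted p = 0.1) and -0.16 ± 0.13 with oligo 1 (adjusted p = 0.707). With oligo 2 it passed the threshold under array weights, the intensity trend and the fit without 3 arrays described below. Dkc1, the pseudouridine synthase dyskerin, had values of 10.08, 9.94 and 10.15 with oligo 1 and 10.29, 10.21 and 10.22 with oligo 2, against 10.29, 10.45 and 10.33 with sirEGFP and 10.05, 10.38 and 10.34 with Mock. All 3 oligo 1 arrays of Dkc1 lay below the oligo 2 arrays, but Mock array 1 was as low as the oligo 1 arrays. Its change against sirEGFP was -0.21 ± 0.10 in the mean of both siRNAs (adjusted p = 0.397). Nhp2, the fourth core protein, had values of 8.47, 8.03 and 8.23 with oligo 1 and 8.34, 8.19 and 7.96 with oligo 2, against 8.59, 8.26 and 8.04 with sirEGFP and 8.63, 8.85 and 8.40 with Mock. Its sirEGFP and knockdown arrays overlapped over most of their range, and the mean change was -0.09 ± 0.15.

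Nop58, a box C/D core protein, had values of 10.58, 11.22 and 11.05 with oligo 1 and 11.03, 11.29 and 11.20 with oligo 2, against 11.05, 11.38 and 11.31 with sirEGFP and 11.11, 11.10 and 11.23 with Mock. Array 1 of oligo 1 stood alone at the low end, and the other arrays overlapped. The change against sirEGFP was -0.19 ± 0.13 (adjusted p = 0.631). The remaining members of this step, Fbl, Nop56 and Nolc1, which accompanies snoRNPs in the nucleolus, had changes between -0.078 and -0.020, none of them called.

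In the small-subunit step, Cmss1 fell and was the only 1 of 20 members called in the mean of both siRNAs against sirEGFP. The step's median change was -0.064, and 12 of its 20 members lay below 0. Cmss1 is named for the yeast protein Cms1, which is placed with the small-subunit precursor particle in yeast. It had log2 values of 6.90, 7.03 and 7.03 with oligo 1 and 7.35, 7.10 and 7.10 with oligo 2, against 7.79, 7.96 and 7.65 with sirEGFP and 7.71, 7.68 and 7.61 with Mock. All knockdown arrays lay below all control arrays, and all oligo 1 arrays lay below all oligo 2 arrays. In the mean of both siRNAs its level changed by -39.1% against sirEGFP (adjusted p = 0.00281). With oligo 1 alone Cmss1 fell by 0.81 ± 0.12 (adjusted p = 0.00273). With oligo 2 alone it fell by 0.62 ± 0.12 (adjusted p = 0.0124). Oligo 1 minus oligo 2 was -0.19, with a 95% interval of -0.45 to 0.06. The call with oligo 2 was lost without sirEGFP array 2 (adjusted p = 0.0742) and without array 2 (0.0573) or array 3 (0.063) of oligo 2, while the call in the mean of both siRNAs held under all 21 alternatives.

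Utp15 belongs to UtpA, the first complex of the processome to bind the precursor, which in human cells has been tied to ribosomal RNA transcription as well. It had values of 8.23, 8.15 and 8.16 with oligo 1 and 8.59, 8.51 and 8.78 with oligo 2, against 8.76, 8.80 and 8.84 with sirEGFP and 8.54, 8.71 and 8.75 with Mock. The oligo 1 arrays were lower than all other arrays, and the oligo 2 arrays overlapped the Mock arrays. Utp15 fell by 0.62 ± 0.11 with oligo 1 against sirEGFP (adjusted p = 0.00844), a change of -34.8% in level. A fit of only these 2 groups gave an adjusted p of 0.0557. With oligo 2 the change was -0.17 ± 0.11 (adjusted p = 0.594), and in the mean of both -0.39 ± 0.10 (adjusted p = 0.0503). Its call against the mean of both controls (-0.33 ± 0.08, adjusted p = 0.0258) was lost without Mock or sirEGFP array 2 or 3, oligo 1 array 3, or oligo 2 array 1 or 2, with an adjusted p up to 0.0655. With Wdr75, Heatr1 and Wdr43 it makes up the 4 UtpA proteins among the members, all below 0 with each siRNA against sirEGFP, with a median of -0.18 in the mean of both. Against Mock the median of these 4 was 0.086 with oligo 1 and 0.044 with oligo 2, and all 4 were above 0 in sirEGFP against Mock, with a median of 0.20. Utp4 and Nol11, also of UtpA, belong to the further list described below and are not part of these medians.

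Utp3, a processome protein also known as Sas10, had values of 9.82, 10.11 and 10.12 with oligo 1 and 10.14, 10.13 and 9.96 with oligo 2, against 10.39, 10.32 and 10.20 with sirEGFP and 10.07, 10.05 and 10.22 with Mock. All knockdown arrays lay below the sirEGFP arrays but not below the Mock arrays, and the change against sirEGFP was -0.26 ± 0.10 (adjusted p = 0.281). Utp18, of the UtpB complex, had values of 9.46, 9.83 and 9.86 with oligo 1 and 9.94, 9.76 and 9.94 with oligo 2, against 9.99, 10.10 and 10.12 with sirEGFP and 9.66, 9.86 and 10.05 with Mock. It too lay below all sirEGFP arrays and within the range of Mock apart from oligo 1 array 1, with a change against sirEGFP of -0.27 ± 0.12 (adjusted p = 0.329). At the other end of the step, Rrp12, known for the export of pre-ribosomes in yeast, had a change of 0.23 that did not pass the test.

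In large-subunit assembly, Wdr12 fell and the step's median change against sirEGFP was -0.092, with 13 of 17 members below 0. Wdr12 forms the PeBoW complex with Pes1 and Bop1, which is needed to mature the RNAs of the large subunit. Its values were 8.81, 9.26 and 9.18 with oligo 1 and 8.79, 8.76 and 8.76 with oligo 2, against 9.31, 9.43 and 9.42 with sirEGFP and 9.34, 9.23 and 9.44 with Mock. The oligo 2 arrays lay close together below all others, while oligo 1 arrays 2 and 3 lay near or within the range of the controls. Wdr12 fell by 0.61 ± 0.13 with oligo 2 against sirEGFP (adjusted p = 0.0178), and with oligo 1 the change was -0.30 ± 0.13 (adjusted p = 0.305). The call in the mean of both siRNAs (adjusted p = 0.0454) was lost without any 1 array other than array 2 of oligo 1, with an adjusted p as high as 0.23 without sirEGFP array 2. The call with oligo 2 was lost without sirEGFP array 2 or 3 or any oligo 2 array, with an adjusted p between 0.0628 and 0.0852. Wdr12 was also lower against the mean of both controls (-0.43 ± 0.09, adjusted p = 0.0118), and that call held under all 21 alternatives.

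A second Wdr12 probe set gave a mean change of -0.43 against sirEGFP, where the one used gave -0.46. It read 9.23 on array 1 of oligo 1 and 9.10 on both other oligo 1 arrays, so the low value of array 1 on the probe set used was not seen there. The PeBoW partners of Wdr12, Pes1 and Bop1, had changes of -0.0061 and 0.18 in the mean of both siRNAs, neither of them called, with Bop1's 95% interval reaching from -0.31 to 0.67.

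Nip7, a factor of large-subunit assembly in yeast that also serves small-subunit RNA processing in human cells, had values of 8.94, 8.99 and 8.89 with oligo 1 and 9.22, 9.01 and 8.99 with oligo 2, against 9.21, 9.31 and 9.29 with sirEGFP and 9.31, 9.42 and 9.34 with Mock. Of the knockdown arrays, oligo 2 array 1 alone reached the lowest control array. Nip7 fell by 0.30 ± 0.08 against the mean of both controls (adjusted p = 0.0304), and against sirEGFP its change was -0.26 ± 0.09 (adjusted p = 0.202). Nop16, a Myc target known as HSPC111 in human cells, had values of 8.56, 8.18 and 8.47 with oligo 1 and 8.46, 7.87 and 8.0 with oligo 2, against 8.87, 8.47 and 8.45 with sirEGFP and 8.92, 8.77 and 8.77 with Mock. All knockdown arrays lay below the Mock arrays but overlapped the sirEGFP arrays. Nop16 fell by 0.71 ± 0.16 with oligo 2 against Mock (adjusted p = 0.024) and by 0.45 ± 0.12 against the mean of both controls (adjusted p = 0.0345), while its change against sirEGFP was -0.34 ± 0.14 (adjusted p = 0.296).

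The calls of Nip7 and Nop16 against the mean of both controls were each lost in 9 of the 12 fits that left out 1 array, with adjusted p as high as 0.0848 for Nip7 and 0.0924 for Nop16. For Nip7 the 9 were every fit but those without sirEGFP array 1, oligo 1 array 2 or oligo 2 array 1. For Nop16 they were every fit but those without sirEGFP array 3, oligo 1 array 1 or oligo 2 array 1. Gnl3, the GTPase nucleostemin, had values of 10.24, 10.57 and 10.34 with oligo 1 and 10.28, 10.43 and 10.39 with oligo 2, against 10.52, 10.59 and 10.66 with sirEGFP and 10.72, 10.54 and 10.58 with Mock. The groups touched only through oligo 1 array 2, and the change against sirEGFP was -0.21 ± 0.10 (adjusted p = 0.396). The related GTPase Gnl2 had a change of 0.027.

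Of the 4 proteins with several roles, none was called. Ddx21, a nucleolar RNA helicase that also binds genes of RNA polymerase I and II, had values of 9.22, 9.21 and 9.32 with oligo 1 and 9.38, 9.42 and 9.30 with oligo 2, against 9.76, 9.57 and 9.63 with sirEGFP and 9.31, 9.28 and 9.53 with Mock. All knockdown arrays lay below the sirEGFP arrays, and the oligo 2 arrays lay within the range of the Mock arrays. Its change was -0.35 ± 0.10 against sirEGFP (adjusted p = 0.093), and with oligo 2 against Mock it was -0.0025 ± 0.11. Mybbp1a, a nucleolar Myb-binding protein, had values of 8.79, 8.11 and 8.58 with oligo 1 and 8.66, 8.48 and 8.29 with oligo 2, against 8.66, 8.12 and 8.0 with sirEGFP and 8.11, 8.46 and 8.37 with Mock. Its groups overlapped throughout, and the change against sirEGFP was 0.23 ± 0.17 (adjusted p = 0.657). Nucleolin (Ncl) and nucleophosmin (Npm1), the abundant nucleolar proteins, had changes of -0.15 and -0.11, neither of them called, and Npm1 also shares a probe set that is assigned to several genes and was not used.

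**Figure D3:**
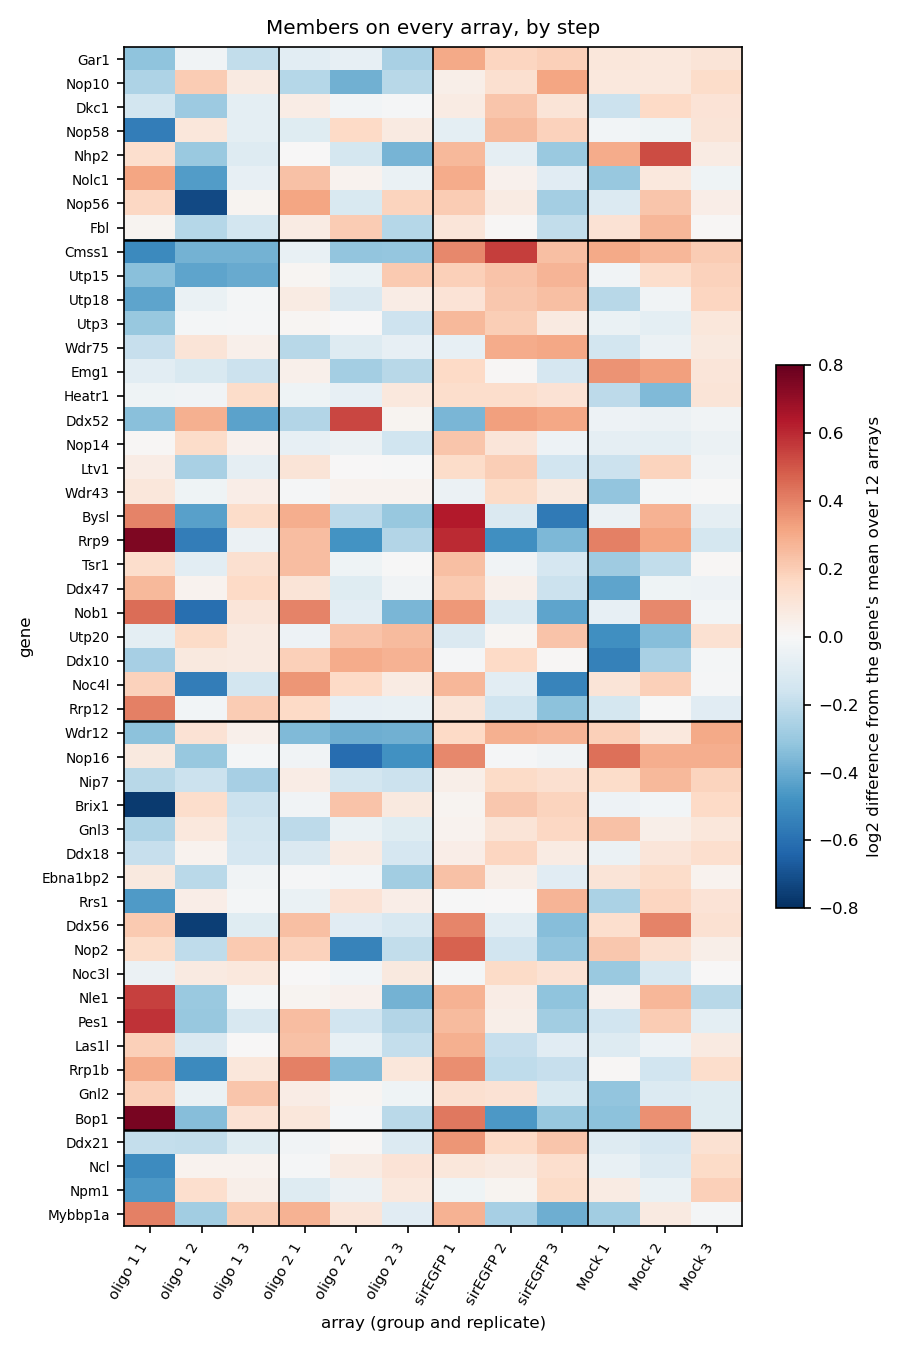
Log2 difference of each member (rows, by step in the order of the text) from its own mean over the 12 arrays (columns, by group and replicate), red above and blue below. Cmss1 is blue on all 6 knockdown arrays, and many rows, such as Rrp9, Bop1 and Nob1, differ most between arrays 1 and 2 of oligo 1.

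The siRNAs were set against each other to see where they differ. Utp15 was lower with oligo 1 than with oligo 2 by 0.45 ± 0.11 (adjusted p = 0.0383), the only member called, beside 2.3% of all genes called lower and 1.37% called higher. This call was lost in 8 of the 12 fits without 1 array, those without sirEGFP array 2 or 3 or any knockdown array, with an adjusted p as high as 0.182 without oligo 2 array 3. Wdr12 lay at the other end, with a difference of 0.32 and a 95% interval of 0.05 to 0.58 (adjusted p = 0.24). On all 3 arrays of oligo 1, Cmss1, Ddx10, Dkc1 and Utp15 were below all 3 of oligo 2, as were 9.19% of all genes. Nop14 and Wdr12 were above them, as were 9.14% of all genes. The member median of this comparison was -0.009, against 0.030 over all genes.

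Between the controls, sirEGFP and Mock, 0 members and 0 of all 19938 genes were called with limma, which is 0% of genes. At an unadjusted p under 0.05 there were 3 members, all higher with sirEGFP, and 1247 genes in all. The member median was 0.060, against 0.018 over all genes. All 3 sirEGFP arrays lay above all 3 Mock arrays for 6 members, namely Gar1, Utp15, Heatr1, Ddx10, Nop14 and Ddx21, beside 6.86% of all genes. They lay below all Mock arrays for 0 members and 3.87% of all genes. The changes of Gar1, Utp15 and Ddx21 are accordingly smaller against Mock than against sirEGFP.

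Ddx10, a helicase related to yeast Dbp4, had the highest difference between the controls. It had values of 9.34, 9.69 and 9.68 with oligo 1 and 9.80, 9.90 and 9.89 with oligo 2, against 9.60, 9.76 and 9.62 with sirEGFP and 9.07, 9.35 and 9.59 with Mock. The oligo 2 arrays were the highest of all, the oligo 1 arrays overlapped both control groups, and Mock array 1 was lowest. The sirEGFP arrays were 0.32 ± 0.14 higher than Mock (adjusted p = 0.781). The oligo 2 arrays were 0.52 ± 0.14 higher than Mock (adjusted p = 0.0501), a change that passed the threshold under 12 of 21 alternatives, among them all 9 that do more than leave out 1 array, and 0.20 ± 0.14 higher than sirEGFP (adjusted p = 0.639). Nhp2 had the lowest difference between the controls, -0.33 ± 0.17 (adjusted p = 0.817).

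**Figure D4:**
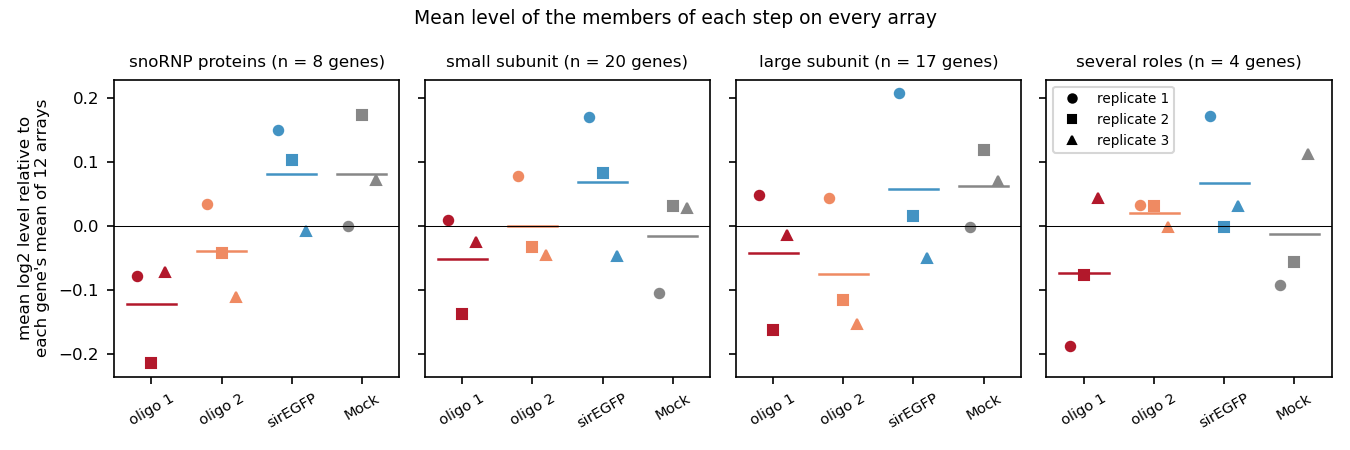
Mean log2 level of the members of each step on every array (vertical axis, relative to each gene's mean over the 12 arrays), with symbols for replicates and lines for group means. The snoRNP proteins have means of -0.12 with oligo 1 and -0.040 with oligo 2, against 0.081 with both sirEGFP and Mock, and their 3 oligo 1 arrays lie below all 6 control arrays while the oligo 2 arrays overlap them. In the other panels both knockdown groups overlap both control groups.

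The members also varied between arrays of the same group. Averaged over all 49 members, the level relative to each gene's mean was -0.15 to -0.0077 on the oligo 1 arrays and -0.091 to 0.055 on the oligo 2 arrays, against -0.036 to 0.18 with sirEGFP and -0.051 to 0.077 with Mock. The ranges overlap. The first axis of variation inside the groups holds 41.5% of the within-group variance over all genes and has oligo 1 array 2 at one end and oligo 1 array 1 and sirEGFP array 1 at the other. Between arrays 1 and 2 of oligo 1, 36.7% of the members differed by more than 0.5, against 20.1% of all genes, with 12 members higher on array 1 and 6 lower. Rrp9, Bop1 and Nob1 were higher on array 1, by 1.30, 1.10 and 1.05, and Brix1, Nop58, Ddx52 and Npm1 differed by -0.90, -0.64, -0.62 and -0.59. All 12 members that were higher on array 1 of oligo 1 were also higher on sirEGFP array 1 than on sirEGFP array 3, and all 6 that were lower on it were lower on sirEGFP array 1. Over all genes these shares were 92.3% and 81.0%, and the arrays at the ends of this axis were the ones compared. The limit of 0.5 and these pairs of arrays were chosen after values had been seen, and the part of this spread in the results was not tested beyond the fits that follow.

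Without those 3 arrays, Cmss1 stayed called in the mean of both siRNAs against sirEGFP (the only member called), and Cmss1 and Wdr12 stayed called against the mean of both controls. The member medians were then -0.054 and -0.026. Against sirEGFP with oligo 1 alone, where 1 array of oligo 1 and 2 of sirEGFP were left and the lone array is assumed to vary like the other groups, 0 members were called, and the adjusted p was 0.062 for Cmss1 and 0.092 for Utp15. The member median of that comparison was then -0.046 rather than -0.14. The comparisons of oligo 2, whose 3 arrays all stayed, moved the other way. Nop10 joined the members called lower against sirEGFP, and Ddx10 was called higher against Mock. Larger shares of all genes were also called in both comparisons than in the main fit.

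A further list of 101 genes of ribosome biogenesis, of which 98 were measured, was described in the same way. In the mean of both siRNAs against sirEGFP, 2 of the 98 fell, 0 were called higher, and the median was -0.064, beside 0.722% and 1.21% of all genes called and a median of 0.0077. Between the siRNAs, 2 of the 98 were called, Utp14a and Nufip1, beside 3.67% of all genes called in either direction. Znhit3, an assembly factor of box C/D snoRNPs, had values of 8.62, 8.95 and 8.74 with oligo 1 and 9.26, 9.01 and 8.99 with oligo 2, against 9.43, 9.58 and 9.57 with sirEGFP and 9.69, 9.79 and 9.49 with Mock. All knockdown arrays lay below all control arrays, and Znhit3 fell by 0.60 ± 0.11 (adjusted p = 0.0131). Leaving out sirEGFP array 2 or array 3 ended that call, with an adjusted p of 0.0989 or 0.0869. Utp14a, a processome protein, had values of 7.74, 8.03 and 7.93 with oligo 1 and 7.26, 7.40 and 7.06 with oligo 2, against 7.97, 8.03 and 8.14 with sirEGFP and 7.75, 7.77 and 7.91 with Mock. The low arrays were those of oligo 2. Utp14a fell by 0.81 ± 0.12 with oligo 2 (adjusted p = 0.00273), its change with oligo 1 was -0.15 ± 0.12 (adjusted p = 0.709), and the siRNAs differed by 0.66 ± 0.12 (adjusted p = 0.00724). The call of Utp14a in the mean of both siRNAs (-0.48 ± 0.11, adjusted p = 0.0344) was lost without Mock array 1, sirEGFP array 2 or 3, array 1 or 3 of oligo 1, or array 1 or 3 of oligo 2, with an adjusted p as high as 0.20 without sirEGFP array 3. Nufip1, an assembly factor of box C/D snoRNPs outside the naming rule and added after its values were seen, had values of 7.86, 7.89 and 7.83 with oligo 1 and 8.36, 8.20 and 8.26 with oligo 2, against 8.47, 8.52 and 8.30 with sirEGFP and 8.32, 8.47 and 8.35 with Mock. Its oligo 1 arrays lay below all others. The siRNAs differed by -0.41 ± 0.11 (adjusted p = 0.0488), a call lost without any 1 array, with an adjusted p as high as 0.175 without oligo 2 array 1.

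Several of these genes also carry snoRNAs within their introns in mammals. RefSeq annotates 19 snoRNAs inside the spans of 7 measured members, counted without regard to strand, and 4 of the snoRNAs had a value, in 3 hosts. Within Ncl, whose change was -0.15, Snora75 had a change of -0.63 ± 0.30 (adjusted p = 0.381) and Snord82 of -0.52 ± 0.26 (adjusted p = 0.415). Within Wdr43, whose change was -0.036, Snord53 had a change of -0.55 ± 0.19 (adjusted p = 0.20). Within Nop56, whose change was -0.024, Snord57 had a change of -0.22 ± 0.23 (adjusted p = 0.792). All 4 lay below 0 in the mean of both siRNAs against sirEGFP and none was called.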

How the data were processed

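Expression in NIH3T3 cells was analysed from the deposited table of 35512 probe sets on 12 arrays. Each array took 2.5 ug of biotin-labelled cDNA amplified out of 100 ng RNA, per the labels' protocols. The values deposited by the authors are on a log2 scale, read from the values themselves. How background was corrected and arrays normalized is not stated in what was used here; limma is named in the submitters' processing notes without a step. Array medians lay between 5.38 and 5.54, and values were used as deposited. The number of arrays limits the precision.

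The 21789 probe sets with 1 symbol in the platform annotation (1621 had several, 12102 none) were named, with symbols updated by Entrez identifier to RefSeq GRCm38.p6 names for 21698 of them. For each gene the probe set with the highest mean was used, which gave 19938 genes. limma 3.58.1 in R 4.3.3 (lmFit, eBayes, two-sided) fitted 4 group means to all 12 arrays (8 residual degrees of freedom), with Benjamini-Hochberg adjustment over all genes, and was tested on simulated data. Beyond the words biological replicate experiments, nothing says how separate the replicate cultures were, so p-values measure the spread between these samples.

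The members and lists were chosen with earlier results of these data known. Values on every array are given for members called in any of 8 comparisons, the 4 smallest p in each step (2 among the 4 proteins of several roles) and the ends of the siRNA and control comparisons. The 21 alternatives were median centring, quantile normalization, a filter on the dimmest 25% of genes, the mean of probe sets, a replicate block, array weights, an intensity trend, a fit of only the groups compared, a fit without the 3 outermost arrays of the within-group axis, and each array left out. Same-numbered arrays of different groups correlated between -0.24 and 0.55 in their deviations from group means. The median correlation was 0.24, 0.18 and 0.17 for numbers 1, 2 and 3, and 9 of 12 arrays were closest to an array of their own number. The labels state no pairing, so the main fit has no block. Whether same-numbered arrays share a batch cannot be told from this, and main p-values do not allow for one.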

Additional observations from a re-analysis of the deposited data

Results flagged for a closer look

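In 1 of 49 members and 2 of 98 related genes the siRNAs against UBF differed from each other by a test of that difference. Of all genes, 3.67% were called in that test, in either direction. Utp15 differed by -0.45 on the log2 scale (oligo 1 minus oligo 2, limma adjusted p = 0.0383), with the oligo 1 arrays below all others. Nufip1 differed by -0.41 (adjusted p = 0.0488), likewise with the oligo 1 arrays below all others. Utp14a differed by 0.66 (adjusted p = 0.00724), with the oligo 2 arrays below all others. Without the 3 outermost arrays of the within-group axis the adjusted p was 0.279 for Utp15, 0.303 for Nufip1 and 0.0775 for Utp14a.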

How the results depend on the processing

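No called change of a named gene turned its sign under any of the 21 alternatives. Array weights, which rest on a weight of 8.92 for oligo 1 array 3, raised the number of members called to 11 (oligo 1 against sirEGFP), 4 (oligo 2 against sirEGFP), 6 (both against sirEGFP), 10 (both against both controls), 11 (oligo 1 against Mock), 6 (oligo 2 against Mock) and 5 (oligo 1 against oligo 2), beside 19.1%, 5.92%, 9.78%, 13.9%, 13.5%, 8.08% and 15.9% of all genes called in either direction in the same order, and moved the oligo 1 median against Mock to -0.030. These member counts also hold both directions. For oligo 1 they include Mybbp1a and Rrp12 against sirEGFP, and Ddx10, Ddx47 and Gnl2 against Mock, whose mean values were higher with oligo 1. Without the 3 outermost arrays of the within-group axis, counts were 0 for oligo 1 against sirEGFP, against Mock and against oligo 2, 1 for both against sirEGFP and 2 for both against both controls, and the oligo 1 medians were -0.046 against sirEGFP and -0.033 against Mock. With oligo 2, the fit without these arrays added calls, of Nop10 (lower) against sirEGFP and of Ddx10 (higher) against Mock. Fitting only the groups compared gave 1 member for oligo 1 against sirEGFP, for both against sirEGFP and for oligo 1 against Mock, and 0 between the siRNAs. In the same order 0.507%, 1.18%, 1.38% and 1.91% of all genes were called. The intensity trend gave 1 for both against sirEGFP and 0 between the siRNAs, beside 1.76% and 3.41% of all genes. It also added Nop10 with oligo 2 against sirEGFP, beside 2.03% of all genes called. The filter on dim genes gave 4 for both against sirEGFP, where Gar1 and Utp15 were added, beside 2.90% of the genes kept. The causes were not tested. Leaving out 1 array gave 2 to 4 members (oligo 1 against sirEGFP), 0 to 2 (oligo 2 against sirEGFP), 1 to 3 (both against sirEGFP), 2 to 6 (both against both controls), 1 to 2 (oligo 1 against Mock), 0 to 4 (oligo 2 against Mock) and 0 to 1 (between the siRNAs). The shares of all genes called, in the same order, were 0.777% to 4.33%, 0.993% to 3.14%, 0.542% to 3.62%, 2.96% to 7.02%, 1.22% to 3.38%, 1.54% to 5.24% and 1.65% to 4.18%. With the replicate block, 4 members were called for both against sirEGFP and 5 for oligo 2 against Mock, where the main counts are 2 and 3. Of all genes, 3.96% and 6.47% were called in these comparisons under the block, where the main shares are 1.93% and 4.25%. Under the block Ubtf, Gar1 and Utp15 passed the threshold against sirEGFP in the mean of both siRNAs (adjusted p = 0.00715, 0.0456 and 0.0323), as did Ddx10 with oligo 2 against Mock (0.0176). The correlation of same-numbered arrays was as low as -0.24, with medians of 0.24, 0.18 and 0.17 for numbers 1, 2 and 3. Of the 12 arrays, 9 were closest to an array of their own number in another group. Leaving out 1 array gave medians of -0.091 to 0.017 for oligo 2 against Mock and -0.061 to 0.047 between the siRNAs, so the sign of these medians is not fixed. Fewer arrays also give fewer residual degrees of freedom.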
